A study of Mus musculus with 3 samples.

Results

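The microRNA genes described here belong to 3 related clusters, miR-17-92, miR-106a-363 and miR-106b-25, with Mir92b as a relative outside them. The members were the 6 genes Mir17hg, Mir92-1, Mir92-2, Mir92b, Mir93 and Mir25, which were chosen by the presence of AGO2 peaks in these same files, so that having a peak is a description and not a result. A peak belonged to a member if its midpoint lay in the RefSeq span of the gene in mm10, on either strand. Between them the members held 14 of the 6911 peaks deposited for the series. AGO2 is the Argonaute protein that carries microRNAs, and its RNA was recovered with the antibody clone 2D4 by HITS-CLIP, in which RNA is crosslinked to protein, pulled down and sequenced. The 3 libraries came from P19, a mouse embryonal carcinoma line, and formed 1 group with no treatment and no control pulldown. The values are 4 peak lists of the whole series, made with the callers CIMS, Piranha, Pyicoclip and PIPE-CLIP. The lists hold no values for single libraries, so depth and spread between libraries are unknown and no test was made.

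A microRNA gene is transcribed as a longer RNA that folds into a hairpin. The hairpin is cut out and trimmed to a short duplex, and an arm of it, called 5p or 3p after the side of the hairpin it comes from, is loaded into an Argonaute protein. The seed, bases 2 to 8 of the loaded arm, pairs with target messenger RNAs. The 3 clusters arose by duplication of an ancestral cluster, and miR-17-92 is known as a MYC-driven oncogenic cluster that promotes proliferation and restrains apoptosis. Its microRNAs are abundant in embryonic stem cells and early embryos. The main arms of the 3 clusters fall into 4 seed groups, named after miR-17, miR-18, miR-19 and miR-92, and the opposite arms have other seeds.

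The mature arms under the Pyicoclip peaks are shown first because they sort by seed. The PIPE-CLIP peak of Mir93 also covered miR-93-3p, with the seed CUGCUGA, which is not among them. Sequences are those of RefSeq for GRCm38.p6, whose coordinates are those of mm10. They run 5′ to 3′, and capitals mark the seed. Entries were matched for all 16 hairpin genes of the 3 clusters and Mir92b.
miR-92a-3p: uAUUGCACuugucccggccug
miR-92b-3p: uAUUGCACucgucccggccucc
miR-25-3p: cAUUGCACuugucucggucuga
miR-363-3p: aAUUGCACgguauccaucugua
miR-93-5p: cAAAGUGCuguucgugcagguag
miR-92b-5p: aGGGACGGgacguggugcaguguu
miR-17-3p: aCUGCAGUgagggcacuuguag

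The miR-92 seed AUUGCAC accounted for most of them. It is carried by 7 annotated arms in mouse, and 5 of these lay under a Pyicoclip peak, namely miR-92a-3p at Mir92-1 and at Mir92-2, miR-92b-3p, miR-25-3p and miR-363-3p. The arms of this seed without a peak in any list were miR-32-5p and miR-367-3p. The miR-17 seed AAAGUGC is also carried by 7 arms, of which only miR-93-5p lay under a peak. The other arms of that seed, miR-17-5p, miR-20a-5p, miR-20b-5p, miR-106a-5p, miR-106b-5p and miR-6383, had none in any of the 4 lists. The miR-19 seed GUGCAAA, with 3 arms, and the miR-18 seed AAGGUGC, with 2 arms, had none either. Over the whole annotation, 44 of 1738 mature arms lay under a Pyicoclip peak, which is 2.53%. Since members were chosen for their peaks, the counts by seed were not tested. Each list starts at a score of 10, so a missing peak means no peak at that level and not that the microRNA was not loaded.

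Beyond the seed, the arms with the miR-92 seed differ to unequal degrees. Positions are counted from 1 at the 5′ end of each arm, with the base of miR-92a-3p given before the position and that of the other arm after it. Against miR-92a-3p, miR-92b-3p matched at 19 of 21 positions, with the differences U10C and G21C. miR-25-3p matched at 18 of 21, with U1C, C14U and C18U. miR-363-3p matched at 10 of 21. Against miR-93-5p, the unlisted arm miR-17-5p matched at 19 of 23 positions, with G10U, U11A, U12C and C13A (the base of miR-93-5p is given before the position), so arms with and without a peak can be close in sequence.

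Within the 3 clusters, 6 of 15 microRNA genes had a peak. Mir92-1, the last hairpin of miR-17-92, had peaks in 2 lists, and Mir17, its first hairpin, had 1 Pyicoclip peak, while Mir18, Mir19a, Mir20a and Mir19b-1 between them had none. In miR-106a-363, Mir92-2 had peaks in 3 lists and Mir363 in 1, whereas Mir106a, Mir18b, Mir20b and Mir19b-2 had none. In miR-106b-25, Mir93 had peaks in 3 lists and Mir25 in 2, and Mir106b had none. Hairpins of 1 cluster are made from 1 primary transcript and lie within 836 nt in miR-17-92, 875 nt in miR-106a-363 and 498 nt in miR-106b-25. Mir32 and Mir367, the seed relatives outside the clusters, had none. Mir17 and Mir363 are not members, and their peaks are given beside those of the members for comparison.

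**Figure D1:**
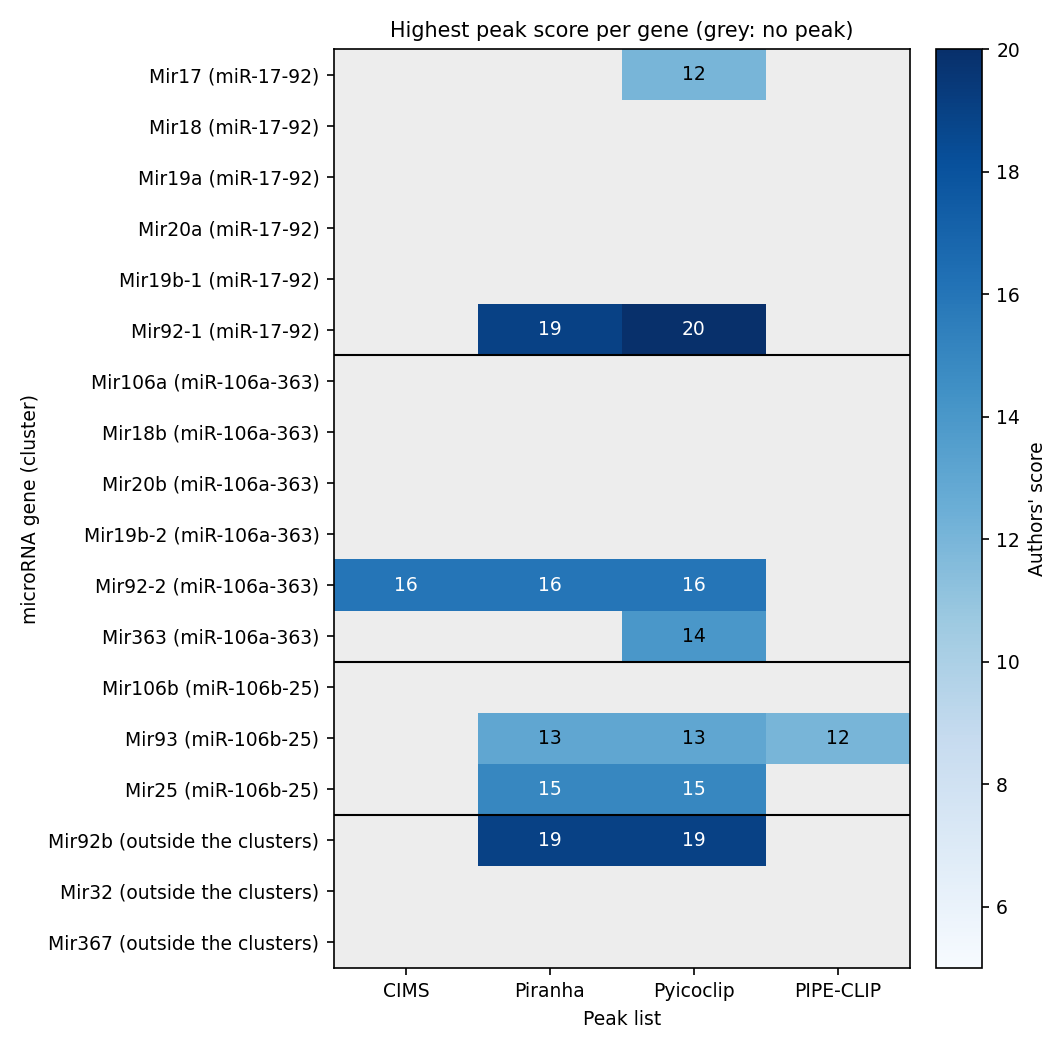
Highest authors' score in each of the 4 peak lists (columns) for the 15 microRNA genes of the 3 clusters and 3 genes with the miR-92 seed outside them (rows, with the cluster in brackets). Colour and printed number are the score and grey cells have no peak; filled cells gather in the Piranha and Pyicoclip columns, and 9 of the 15 cluster genes are grey throughout.

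Piranha and Pyicoclip each had a peak in all 6 members, counting Mir17hg, whose only peaks are those of Mir92-1 inside its span. Over the annotation, 37 of 1228 microRNA genes (3.01%) had a Piranha peak and 50 (4.07%) a Pyicoclip peak. CIMS and PIPE-CLIP each had a peak in 1 member, against 0.163% and 0.651% of microRNA genes. In any list, 52 microRNA genes (4.23%) had a peak. The rule used these same peaks, so nothing is read from the difference. Of the 52 genes, 15 were in 1 list, 30 in 2, 6 in 3 and 1 in all 4. Mir92-1, Mir92b and Mir25 were in 2 lists, and Mir92-2 and Mir93 in 3. All 14 member peaks overlapped a same-strand peak of another list by 1 nt or more. So did all 169 CIMS peaks, 99.9% of Piranha, 83.3% of Pyicoclip and 20.8% of PIPE-CLIP peaks over the whole lists, so the overlap of the members is near that of their lists except for the single PIPE-CLIP cluster. The lists come from the same libraries, so this overlap is not replication.

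All 14 peaks lay on the strand of the microRNA gene. Of the peaks of all microRNA genes, 37 of 38 in Piranha and 48 of 55 in Pyicoclip did so, and none was on the opposite strand. The remaining Piranha peak lay in a gene whose strand was not given, as did 4 of the remaining Pyicoclip peaks, and 3 Pyicoclip peaks had no strand. For comparison, 58.5% of 496 Piranha peaks and 70.8% of 825 Pyicoclip peaks in protein-coding genes were on the sense strand. That count took stranded peaks whose midpoint lay in a single gene span, of a protein-coding gene whose strand was given.

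The hairpins of the members are shown with the bases under the Pyicoclip peak in capitals, because that list followed the mature arms most closely. Mir92-1 lies at chr14:115044427-115044506 on the plus strand and Mir92-2 at chrX:52741838-52741928 on the minus strand. Mir92b lies at chr3:89227116-89227198, Mir25 at chr5:138165321-138165404 and Mir93 at chr5:138165523-138165610, all on the minus strand.
Mir92-1: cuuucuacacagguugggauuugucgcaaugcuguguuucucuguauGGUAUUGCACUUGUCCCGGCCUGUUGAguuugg
Mir92-2: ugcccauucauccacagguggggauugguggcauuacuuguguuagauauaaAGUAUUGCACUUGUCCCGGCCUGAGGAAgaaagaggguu
Mir92b: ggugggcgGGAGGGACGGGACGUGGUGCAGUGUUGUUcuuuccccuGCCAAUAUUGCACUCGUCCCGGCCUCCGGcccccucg
Mir25: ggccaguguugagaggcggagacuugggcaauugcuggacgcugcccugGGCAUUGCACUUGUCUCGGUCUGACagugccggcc
Mir93: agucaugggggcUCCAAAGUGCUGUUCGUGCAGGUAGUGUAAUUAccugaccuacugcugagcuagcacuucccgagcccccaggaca

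miR-92a-3p is the same 21-nt RNA from both Mir92-1 and Mir92-2, and each locus had its own peak. At Mir92-1 the Pyicoclip peak, chr14:115044474-115044500, scored 20, and the Piranha peak, chr14:115044461-115044480, scored 19. At Mir92-2 the Pyicoclip peak, chrX:52741849-52741876, the Piranha peak, chrX:52741841-52741860, and the CIMS peak, chrX:52741833-52741873, each scored 16. The score is the authors' own, with no stated unit, and ranks peaks within a list only. How reads that match both loci were placed is not given in the sources used here, so the share of each locus in the mature RNA is uncertain. The Pyicoclip peaks ran past the shared 21 nt by 2 nt upstream and at least 4 nt downstream at both loci. Of these 6 flanking bases, 3 are identical in the 2 hairpins and 3 differ. Of 53 mature names annotated at more than 1 locus, 5 had a peak at some locus, and 4 of those, miR-92a-3p, let-7c-5p, miR-181a-5p and miR-181b-5p, had one at every locus.

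The CIMS peak of Mir92-2 was 1 of 2 CIMS peaks in microRNA genes, the other being in Mir6240. CIMS is a caller named for crosslink-induced mutation sites, and each of its peaks is 41 nt wide. The centre of this window, position 52741853, lay 1 nt beyond the 3′ end of miR-92a-3p. The peak name gave k as 16 and m as 4, numbers that the labels do not define. The medians over the 169 CIMS peaks were 27 and 3. The score of 16 was at percentile 34.9 of the CIMS list, so this peak was in the lower part of that list.

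Mir92b, a hairpin on its own, was the member with a separate peak on each arm. The 3p arm, with the miR-92 seed, scored 19 in Pyicoclip at chr3:89227124-89227152 and 19 in Piranha at chr3:89227121-89227140. The 5p arm, with the unrelated seed GGGACGG, scored 12 in both lists, at chr3:89227162-89227190 and chr3:89227161-89227180. The 3p arm thus had the higher score in each list. Separate peaks on both arms were seen for 3 of 41 microRNA genes with a Pyicoclip peak on a mature arm, Mir92b, Mir181a-2 and Mir423. In Piranha this was so for 1 of 35, Mir92b. This count is limited to annotated arms and credits each peak to 1 arm, so a peak over both arms does not enter it. Mir302a also had 2 Pyicoclip peaks, with a score of 20 on its 5p arm and 15 on no annotated arm.

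Mir25 and Mir93 lie in the Mcm7 gene, which encodes a subunit of the replicative helicase, on the same strand as Mcm7. The Mir25 peaks scored 15 in both lists, in Pyicoclip at chr5:138165331-138165355 over miR-25-3p and in Piranha at chr5:138165321-138165340. The Mir93 peaks scored 13 in both, in Pyicoclip at chr5:138165566-138165598 over miR-93-5p and in Piranha at chr5:138165561-138165580. A PIPE-CLIP cluster at Mir93, chr5:138165535-138165601, scored 12 and was 67 nt wide. It covered both arms and the loop between them. The Pyicoclip peak covered the 5p arm and part of the loop, and the Piranha peak covered 7 nt of that arm. The Mcm7 span of 7529 nt held 5 peaks in all, and all 5 were those of Mir93 and Mir25.

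Mir17hg is the host transcript of miR-17-92, with a RefSeq span of chr14:115044390-115046728 on the plus strand. The span starts after Mir17, Mir18, Mir19a and Mir20a and overlaps only 2 nt of Mir19b-1, so it holds Mir92-1 as its single whole hairpin. Both of its peaks were those of Mir92-1, and 0 of them lay elsewhere in its 2339 nt. The host transcript therefore added no peak of its own to the members.

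Mir17 and Mir363 each had a Pyicoclip peak with its midpoint in the hairpin, scoring 12 at chr14:115043719-115043744 and 14 at chrX:52741695-52741720. The Mir17 peak covered miR-17-3p, the arm with the seed CUGCAGU, and not miR-17-5p, the arm after which the seed group is named. The Mir363 peak covered miR-363-3p. A Piranha peak at chrX:52741681-52741700, with a score of 13, overlapped 8 nt of Mir363, but its midpoint lay outside the span, so it is not counted in the lists of this gene. No such peak lay at the edge of another hairpin of the 3 clusters.

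**Figure D2:**
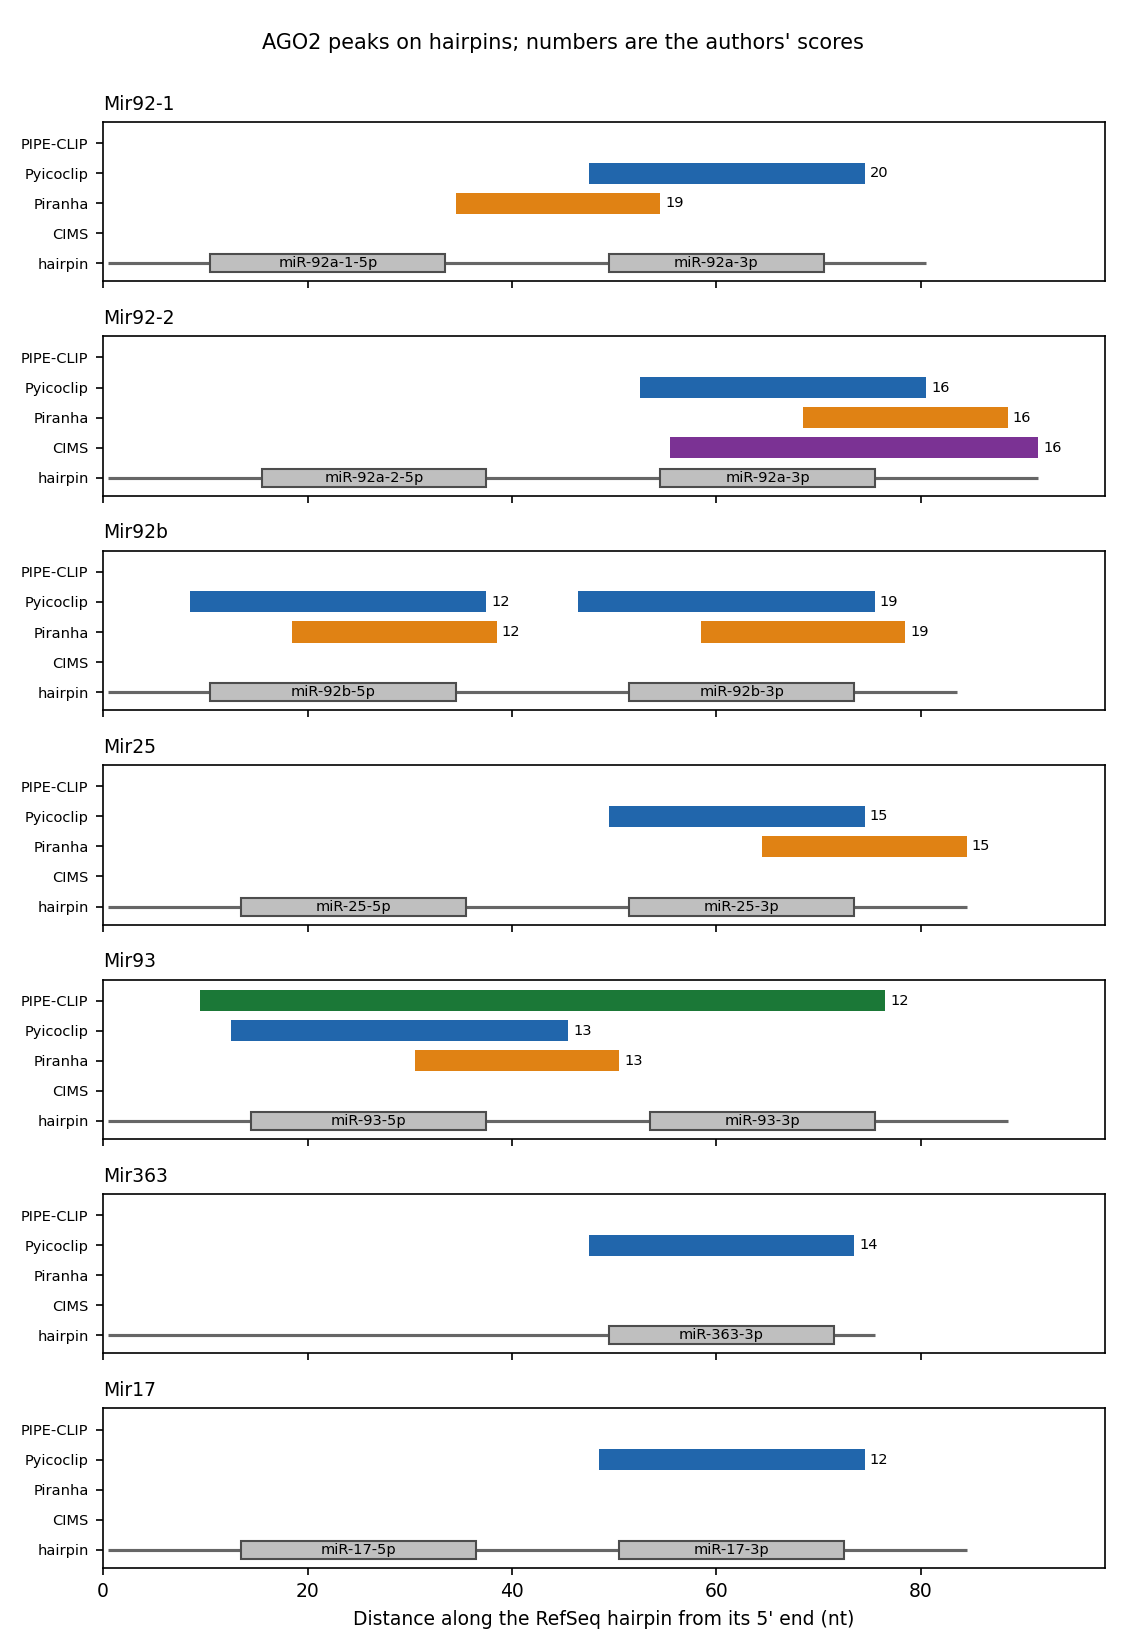
Peaks drawn on 7 hairpins, 1 panel each, against the distance from the hairpin 5′ end in nt. Grey boxes are the annotated mature arms, coloured bars are the parts of peaks inside the hairpin in the 4 lists, and numbers are the authors' scores; Pyicoclip bars enclose 1 arm, and Piranha bars are shifted from it by up to 16 nt at the 5′ edge.

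Scores of the miR-92 seed arms were at or above that of Mir93. In Pyicoclip the order was Mir92-1 with 20, Mir92b with 19, Mir92-2 with 16, Mir25 with 15 and Mir93 with 13. In Piranha, Mir92-1 and Mir92b had 19, Mir92-2 had 16, Mir25 had 15 and Mir93 had 13. Neighbours in these orders are at most 3 score units apart and no error can be given, so the order is that of the lists and not a measured difference in loading.

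Among all microRNA genes, the members were in the upper and middle ranks. Mir92-1 ranked 8 of 50 in Pyicoclip and 6 of 37 in Piranha, where genes with equal scores share the better rank. Mir93, the lowest member, ranked 24 of 50 and 18 of 37. The 6 Pyicoclip peaks of the members had a median score of 15.5 and a median percentile of 74.6 within the list. The 55 peaks of all microRNA genes, members included, had 13 and 58.7. The Pyicoclip peaks of Mir363 and Mir17, cluster genes that are not members, were at percentiles 66.4 and 47.7. In Piranha the 6 peaks had a median of 15.5 and percentile 80.1, against 13 and 63.4 for 38 peaks, members again included. Members were chosen for their peaks and leave out Mir363 and Mir17, so nothing is read from these differences. The lone PIPE-CLIP cluster was at percentile 34.1 of that list, and 49.3 was the median of 8 clusters in microRNA genes.

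**Figure D3:**
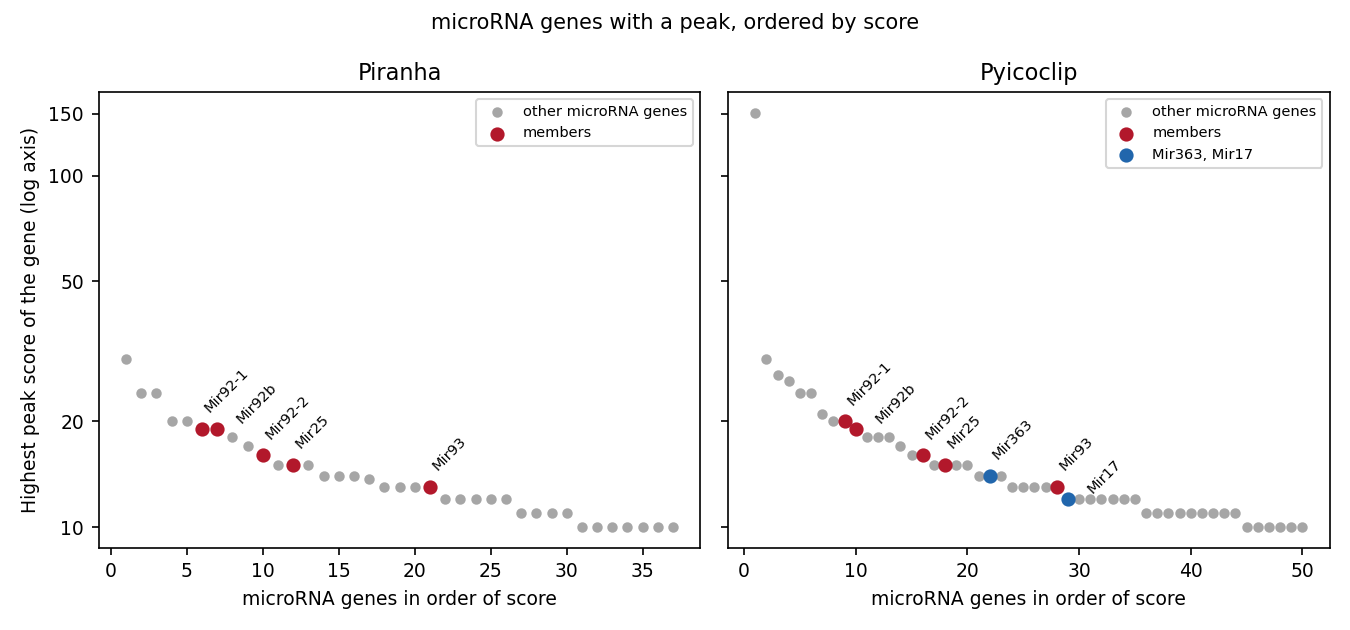
Highest score per microRNA gene (vertical log axis) in Piranha (left) and Pyicoclip (right), with genes in order of score on the horizontal axis. Red points are members, blue points Mir363 and Mir17, and grey points all other microRNA genes; members lie between 13 and 20, below the leading gene of each list.

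The microRNA genes with the most peaks outside these families were Mir6236 with 5, Mir6240 with 4, and Mir181a-1, Mir181b-2 and Mir182 with 3 each, all in at least 3 lists. Another 3 genes, Mir181a-2, Mir302a and Mir423, also had 3 peaks, in 2 lists. In Pyicoclip the highest score was 151 at Mir6236, and Mir181a-1 had 30 and Mir182 had 27, above the 20 of Mir92-1. The 3 Pyicoclip peaks of Mir6236 overlapped, ended at the same base and each scored 151, so they are not separate sites. They were 102 to 127 nt wide and the Pyicoclip peak of Mir6240 was 84 nt wide. The median width over Pyicoclip peaks in microRNA genes was 29 nt. The miR-302 cluster of pluripotent cells had Pyicoclip peaks in 3 of 5 genes, with highest scores per gene of 12 to 20. The miR-290 cluster had them in 3 of 9 genes, with 10 to 18, and the miR-181 family in 5 of 6, with 12 to 30. The let-7 family had them in 4 of 11 genes, with 11 to 12, and the cluster of miR-182, miR-183 and miR-96 in 2 of 3, with 24 to 27. The 5 hairpin members, at 13 to 20, were within the ranges of the miR-302 cluster and the miR-181 family. They reached above the range of miR-290, were above let-7 and were below miR-182 and miR-183, and no test was made.

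The callers placed the same sites differently. Each of the 6 Pyicoclip peaks covered the whole mature arm, and 5 of them began 2 nt upstream of its 5′ end. The exception was miR-92b-3p, at 5 nt. They ended 1 nt past the 3′ end at Mir25, 2 and 3 nt past it at the 3p and 5p arms of Mir92b, 4 nt at Mir92-1, 5 nt at Mir92-2 and 8 nt at Mir93. The peaks of Mir17 and Mir363 also began 2 nt upstream, and both ended 2 nt downstream. Of 38 Pyicoclip peaks on arms of other microRNA genes, 35 covered the whole arm, 16 began exactly 2 nt upstream and 32 began 1 to 5 nt upstream. At the 3′ edge, 27 of the 38 ended 1 to 5 nt past the arm and 5 ended at least 8 nt past it. The edges of the members were thus like those of other microRNAs, with Mir93 reaching farthest into the loop among the members.

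Of the 6 member peaks in Pyicoclip, 4 were on 3p arms and 2 on 5p arms. The other microRNA genes had 10 on 3p arms and 24 on 5p arms in Pyicoclip. Of their 47 Pyicoclip peaks, only 38 lay on an annotated arm, and 4 of these arms have no 5p or 3p name. The difference was not tested. The 3p peaks of the members are all of the miR-92 seed and so are not separate observations.

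**Figure D4:**
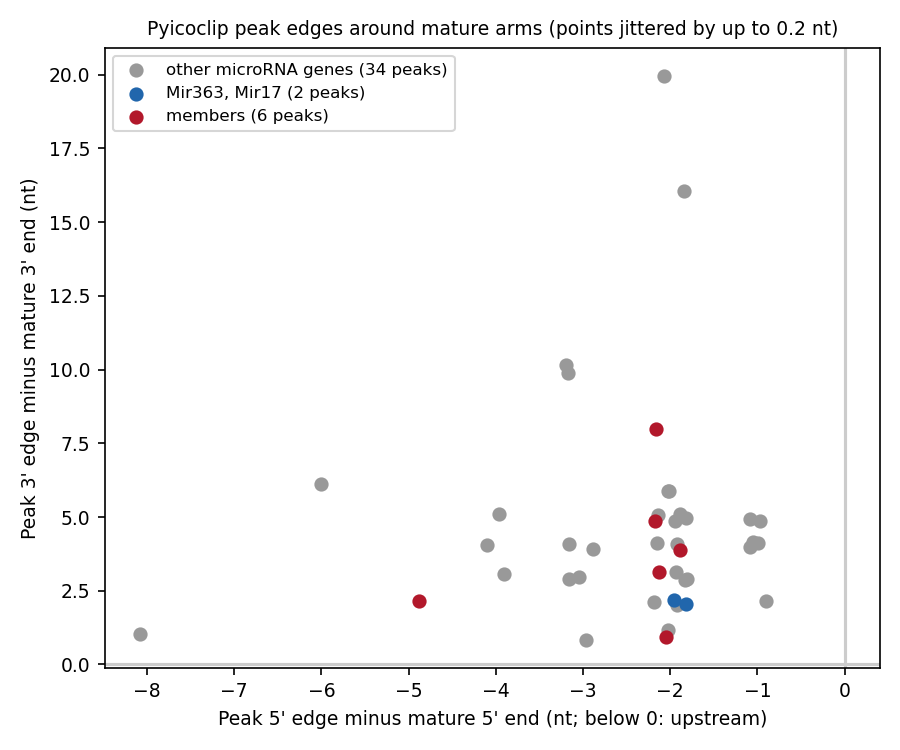
Distance of the Pyicoclip peak edges from the ends of the mature arm, with the 5′ edge on the horizontal and the 3′ edge on the vertical axis, in nt and in the direction of the RNA. Red points are the 6 member peaks, blue Mir363 and Mir17, and grey other microRNA genes, of which 4 lie outside the axes; most points gather 1 to 4 nt upstream and 1 to 6 nt downstream.

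Piranha peaks did not enclose the arms. All Piranha peaks of the members were 20 nt wide, and all 1417 peaks of that list started on a grid of 20 nt. They covered 5 to 16 nt of the mature arm. At Mir92-1, on the plus strand, the bin lay upstream, with its 5′ edge 15 nt before that of miR-92a-3p. At the minus-strand hairpins it lay downstream, by 7 to 16 nt at the 5′ edge. In all 6 cases the bin held the lowest genome coordinate of the Pyicoclip peak, which is the 5′ edge of the RNA on the plus strand and the 3′ edge on the minus strand. Over the list, this was so for 93.6% of 472 plus-strand and 95.0% of 500 minus-strand bins of 20 nt that overlapped a single Pyicoclip peak of at most 40 nt, and the bin held the highest coordinate in 1.06% and 0.40%. The position of a Piranha peak along a hairpin therefore depends on the strand of the gene, and arms were read from Pyicoclip.

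The scores of these 2 lists were nearly the same values. For 5 of the 6 Piranha peaks of the members the score equalled that of the overlapping Pyicoclip peak, and at Mir92-1 it was 1 lower. Over all 1356 Piranha peaks with a Pyicoclip partner, 68.8% were equal, 423 were lower and 0 were higher. The agreement of the 2 callers on the members is thus a property of the lists and not a second measurement.

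Genes regulated by these microRNAs form the other side of AGO2 binding. A list of 39 genes known as targets of the clusters, with the MYC genes that activate them, was read for peaks. Of these, 11 had a peak in at least 1 list, or 5 without PIPE-CLIP. Both counts include Mycn, a MYC gene. Of all 21900 protein-coding genes, 9.77% had a peak in any list and 4.58% without PIPE-CLIP. The genes of the list were also longer, with a median span of 33821 nt against 17146 nt, and the list was written with earlier results of these data known. Peaks were not matched to seeds, because no genome sequence was used here. A peak in a target gene therefore cannot be assigned to any microRNA.

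Vldlr, the very low density lipoprotein receptor gene, was the target with peaks in 3 lists. Its Pyicoclip peaks at chr19:27249508-27249632 and chr19:27249264-27249496 scored 25 and 11, and its PIPE-CLIP clusters at chr19:27249508-27249610 and chr19:27249332-27249491 scored 23 and 14. The Piranha peaks there scored 13 and 10. All 6 lay between 87.1% and 87.7% of the way along the gene span, so they form 1 short stretch of the gene and not 6 separate sites.

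The genes in 2 lists were E2f3, Mycn, Phlpp2 and Fbxw7. E2f3, a transcription factor of S-phase entry, had a Pyicoclip peak of 11 and a PIPE-CLIP cluster of 15 at the same interval, chr13:29907060-29907149, at 99.3% of its span. A further PIPE-CLIP cluster there scored 17. Mycn, which encodes N-MYC, had a Pyicoclip peak of 10 at chr12:12936940-12937019 and PIPE-CLIP clusters of 22 and 11. The Pyicoclip peaks of E2f3 and Mycn carried no strand, while their PIPE-CLIP clusters were sense. Phlpp2, a phosphatase gene of AKT signalling, had a Pyicoclip peak of 14 and a PIPE-CLIP cluster of 13, at 95.8% of its span. These peaks lay in the last part of each span, apart from the E2f3 cluster of 17, at 25.3%, and the Mycn cluster of 11, at 79.2%.

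Fbxw7, a ubiquitin ligase gene, had a Piranha and a Pyicoclip peak of 10 each, at 11.4% of its span. The other 6 genes, Tgfbr2, Ccnd2, Smad4, E2f1, Rbl1 and Socs1, had PIPE-CLIP clusters alone, with 6 in Tgfbr2, the type II receptor of TGF-beta. In the listed genes with a given strand, 23 stranded peaks were sense and 0 antisense. In PIPE-CLIP, 98.2% of 2100 peaks in protein-coding genes were sense. The 28 other genes, among them Bcl2l11, Cdkn1a and Rb1, had no peak in any list at a score of 10 or more.

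**Figure D5:**
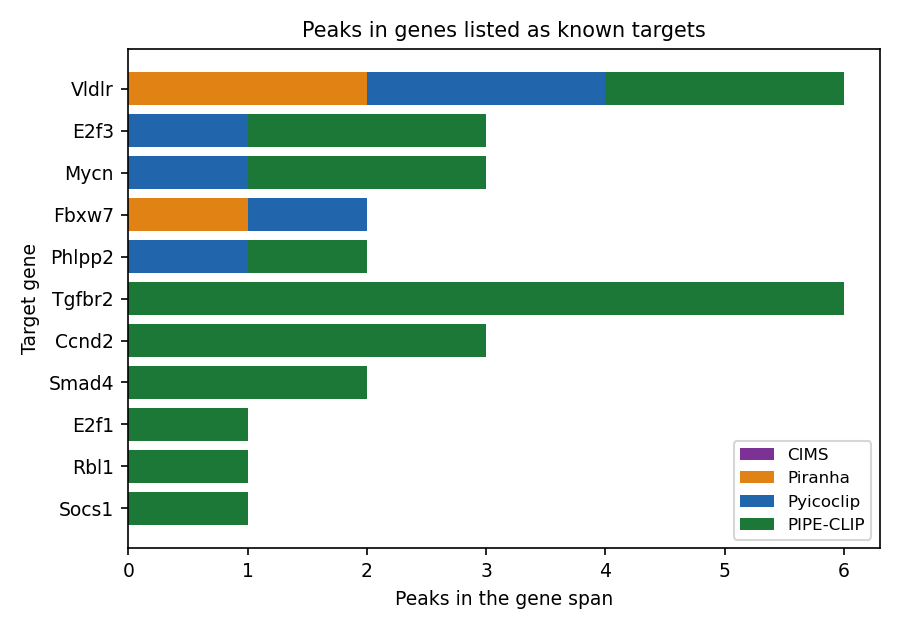
Number of peaks in the gene span (horizontal axis) for genes of the target list (vertical axis), stacked by peak list in colour. Of the 39 listed genes, the 11 with any peak are shown, Mycn among them. Vldlr has peaks from 3 lists, 4 genes from 2, and the lower 6 genes have PIPE-CLIP clusters alone; no CIMS peak lay in these genes.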

How the data were processed

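The data are 4 peak lists of 3 AGO2 HITS-CLIP libraries of P19 cells. The submitters' processing notes name cutadapt, Novoalign and the build mm10. Not given in the sources used here are their versions, the caller settings, the handling of reads with several matches and how the libraries were pooled. The authors deposited a score per peak, with no stated unit and a minimum of 10. Piranha scores were not whole in 68 peaks, all wider than 20 nt. The depth per library is unknown, and no molecular identifiers are named.

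Spans came from a RefSeq gene table and arms, strands and sequences from RefSeq tables, all for GRCm38.p6. Of 1228 microRNA genes, 1072 had a sequence entry. Each peak was assigned to every gene span holding its midpoint, and to the mature arm it overlapped most on its strand. Edges were measured in the direction of the RNA. Score percentiles are mid-ranks within a list. The 3 libraries carry no values of their own, so no test, interval or replicate check could be made.

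The members and lists were chosen with earlier results of these data known. Genes named were the members, the other genes of the clusters and the 5 other microRNA genes with the most peaks. Genes of the target list with a peak in at least 2 lists were named too. Target genes with a PIPE-CLIP peak alone, the 3 named genes without a peak, the other microRNAs on both arms or at several loci and the families set beside the members were named after their values were seen. A gene of the target list is not reported here. Alternatives covered assignment, strand, overlap, merging and the better-scoring part of each list. The assignment and overlap steps were tested on simulated data. Python 3.11.15, numpy 2.4.6, pandas 2.3.3 and matplotlib 3.10.9 were used.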

Additional observations from a re-analysis of the deposited data

How the results depend on the processing

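Of 45 recomputed values, 37 stayed within 1.5 times the reported count or within 1 SD of the reported percentile. With peaks at or above the median score of each list alone, CIMS and PIPE-CLIP had 0 member peaks and 0 members with a peak, while Piranha and Pyicoclip had 6 members each. In a further setting, at least 50% of a peak had to overlap 1 peak of another list. The member peaks that did so fell from 6 to 5 in Piranha and from 6 to 4 in Pyicoclip. The single CIMS peak still did. The PIPE-CLIP cluster of Mir93, wider than the peaks of the other lists there, no longer did, giving 0. Among peaks in microRNA genes alone, the percentile of the CIMS peak was 50 in place of 34.9 and that of the PIPE-CLIP cluster 37.5 in place of 34.1. Both rest on single peaks, for which no SD can be given, and both were counted as outside the limits above. Without PIPE-CLIP, 5 genes of the target list had a peak in place of 11. Counting peaks on the strand of the gene alone, an alternative chosen after seeing the data, left 11, of which 9 had a sense peak and 2, with no strand given for the gene, were kept. No library could be left out and no paired analysis was possible because the lists hold no values per library. Depth is unknown, and scores under 10 were not analysed here.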
